A study of Mus musculus and Homo sapiens with 81 samples.

Results

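HT29 is a human colon cancer cell line, and the comparison described here set HT29 cells labelled Ptpn2-null against control HT29 cells when neither had been given a cytokine. It used 4 RNA-seq libraries of the 81 in the study, 2 per genotype, chosen by their titles in the HT29 count table. The question was which interferon-stimulated genes differed between the genotypes without added interferon. The wider study measured gene expression in cultured mouse and human cancer cells that lacked or kept this gene and were given cytokines or vehicle.

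All HT29 cells expressed Cas9 and had been infected with a guide-carrying lentivirus. Control cells carried the non-targeting guide Bro4, and Ptpn2-null cells a guide against PTPN2 that the labels call Ptpn2sg3, the name also given to the guide in the mouse cells. Vehicle was PBS with BSA, given for 48 h. A further 4 HT29 libraries, 2 per genotype, came from cells given 100 ng/mL interferon-gamma (IFNg) for 48 h and are used below for comparison. The series' design text says that deletion was verified, but protein was not measured in these files. With 1 guide per genotype, an effect of PTPN2 loss and any other difference between the infected populations cannot be told apart. The labels do not state whether the 2 libraries of a group are separate cultures, so the p-values may describe technical spread only. The RNA is from bulk cultures, so a larger share of responding cells and a larger response per cell cannot be told apart.

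PTPN2 encodes a tyrosine phosphatase that removes phosphate from JAK kinases and STAT proteins and so limits signalling from interferon receptors. Type I and type III interferons act through a STAT complex that contains IRF9, and IFNg mainly through STAT pairs. These factors switch on interferon-stimulated genes, which include antiviral proteins, the machinery that presents antigens on MHC class I molecules, guanylate-binding proteins and chemokines that attract T cells.

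The 8 HT29 libraries held 6848609 to 9605776 counts, and 12555 of 23227 genes passed the filter on low counts. Levels are given for each of the 2 libraries of a group as CPM, the counts of a gene scaled by the size of its library times a TMM factor. TMM factors allow for differences in library composition, and were 1.10 in the vehicle and 0.898 to 0.919 in the IFNg libraries. Differences are given as log2 fold changes ± SE, Ptpn2-null minus control. A gene was called when its p from edgeR's quasi-likelihood test, adjusted by the Benjamini-Hochberg method across the genes tested, was under 0.05. The SE was derived from each fold change and its F statistic, and it can understate the error of genes with few counts. Colon epithelial markers were present: KRT20 at 250.5 to 293 CPM, EPCAM at 453 to 508 CPM and LGALS4 at 182 to 217 CPM in the vehicle libraries, while CDX2 had 5 to 11 counts per library. Of the markers of other cell types, 7 of 14 leukocyte, 4 of 10 fibroblast, 4 of 10 melanocyte and 5 of 9 lung epithelium markers had 0 counts in all 4 vehicle libraries, among them PTPRC, TYR and NKX2-1.

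PTPN2 was lower in the libraries labelled Ptpn2-null. It stood at 27.9 and 28.9 CPM in the control vehicle libraries and at 15.4 and 16.7 CPM in the Ptpn2-null vehicle libraries (-0.82 ± 0.11, adjusted p = 7.3e-08, edgeR). The groups did not overlap. Under IFNg the levels were 39.8 and 40.2 CPM in control and 26.5 and 27.6 CPM in Ptpn2-null cells (-0.57 ± 0.10). Transcript remained in the Ptpn2-null cells, and the files do not show whether it codes for protein.

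Without added cytokine, 2653 genes were called between the genotypes (21.1% of those tested), 1566 higher in Ptpn2-null cells (12.5%) and 1087 lower (8.66%). The counts were 803 and 536 with the test of DESeq2, 1001 and 625 without control vehicle replicate 1, and 679 lower without Ptpn2-null vehicle replicate 2. Large differences were mostly in 1 direction: 218 genes were called at least 2-fold higher (1.74%) and 10 at least 2-fold lower (0.0796%). Of the 218, 53 were on the 5 lists of interferon signalling, antiviral, MHC class I, MHC class II and IFNg-inducible genes, which hold 132 tested genes. Most of the 218 were thus not on these lists. The median log2 fold change of all tested genes was 0.02. The shares of 12.5% higher and 8.66% lower are the background for the counts of each list under vehicle.

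Antiviral interferon-stimulated genes were higher in Ptpn2-null cells almost throughout the list. All 41 listed genes were tested, 40 were called higher and none lower, against 12.5% of all tested genes called higher, and the list's median log2 fold change was 1.57. Of the 41, 36 also passed the same filter in the control vehicle libraries alone, so most of them did not depend on the Ptpn2-null or IFNg libraries to be tested. In all 41 genes both Ptpn2-null libraries lay above both control libraries, which held for 32.9% of all tested genes. TRIM5, a restriction factor of retroviruses, was the member not called (0.25 ± 0.11, adjusted p = 0.084, edgeR).

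The OAS enzymes sense double-stranded RNA and make the short oligoadenylates that activate RNase L. OAS2 stood at 14.6 and 14.8 CPM in control and 91.1 and 83.3 CPM in Ptpn2-null libraries (2.57 ± 0.08, adjusted p = 5.3e-33, edgeR), a 5.94-fold difference. OAS3 stood at 187 and 208 against 445 and 443 CPM (1.17 ± 0.04, adjusted p = 2.1e-30), and OAS1 at 30.9 and 37 against 92.6 and 97.7 CPM (1.48 ± 0.07). For each of the 3 enzymes the difference was many times the gap between the libraries of a genotype.

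Inhibitors of viral entry and replication showed some of the largest folds. The dynamin-like GTPase genes MX1 and MX2 stood at 11.8 and 14.1 against 57.6 and 52.6 CPM (2.09 ± 0.09) and at 3.58 and 2.67 against 24.9 and 19.3 CPM (2.84 ± 0.17). RSAD2, which encodes viperin, stood at 2.65 and 2.79 against 26.1 and 23 CPM (3.17 ± 0.17, adjusted p = 1.9e-23, edgeR). IFITM1, a membrane protein that blocks virus fusion, stood at 1.06 and 2.18 against 11.9 and 12.2 CPM (2.86 ± 0.23), and its relative IFITM3 at 10.2 and 10.4 against 34.5 and 30.1 CPM (1.65 ± 0.13). BST2 (tetherin), which holds budding virus at the cell surface, differed less, with 59.6 and 66.9 against 95 and 89.3 CPM (0.54 ± 0.06). None of these pairs of groups overlapped, which the rule that named MX2 and RSAD2 had required of them.

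The largest difference on the list was that of TRIM22, an antiviral ubiquitin ligase gene, which rose from near the limit of detection. It had 0.266 and 0.485 CPM in the control libraries, 6 counts in all, and 7.23 and 5.54 CPM in the Ptpn2-null libraries, 115 counts in all (4.03 ± 0.36, adjusted p = 1.2e-13, edgeR). XAF1, which promotes apoptosis, stood at 0.929 and 1.82 against 13.7 and 11.4 CPM (3.17 ± 0.24), and SAMD9L, a translation inhibitor gene, at 0.796 and 2.42 against 12.6 and 8.19 CPM (2.66 ± 0.28). Its neighbour in the family, SAMD9, was already at 144 and 158 CPM in control cells and reached 316 and 319 CPM (1.07 ± 0.04).

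The IFIT proteins bind viral RNA, and ISG15 is a ubiquitin-like protein attached to others during the interferon response. IFIT1 stood at 25.5 and 31.8 CPM in control and 97.4 and 94.4 CPM in Ptpn2-null libraries (1.74 ± 0.07), IFIT2 at 14.1 and 17.8 against 53.5 and 43 CPM (1.60 ± 0.10) and IFIT3 at 25.9 and 32.7 against 102 and 88.7 CPM (1.70 ± 0.08). ISG15 stood at 55.5 and 55.9 against 155 and 138 CPM (1.40 ± 0.06, adjusted p = 1.2e-26, edgeR). The folds of these 3 were 3.03 to 3.33, and IFIT5 differed by less (1.10 ± 0.09). Genes used in interferon signatures followed the same direction: IFI6 44.1 and 44.6 against 128 and 136 CPM (1.57 ± 0.06), IFI27 55.5 and 58.1 against 157 and 153 CPM (1.45 ± 0.06) and IFI44L 3.98 and 4.24 against 27.6 and 26 CPM (2.70 ± 0.15). The cytosolic RNA sensor gene DDX58 (RIG-I) rose from 29.3 and 29.9 to 80.1 and 76.4 CPM (1.40 ± 0.07), and DDX60, a helicase gene, from 17.5 and 22.9 to 70.6 and 68.1 CPM (1.77 ± 0.09).

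**Figure D1:**
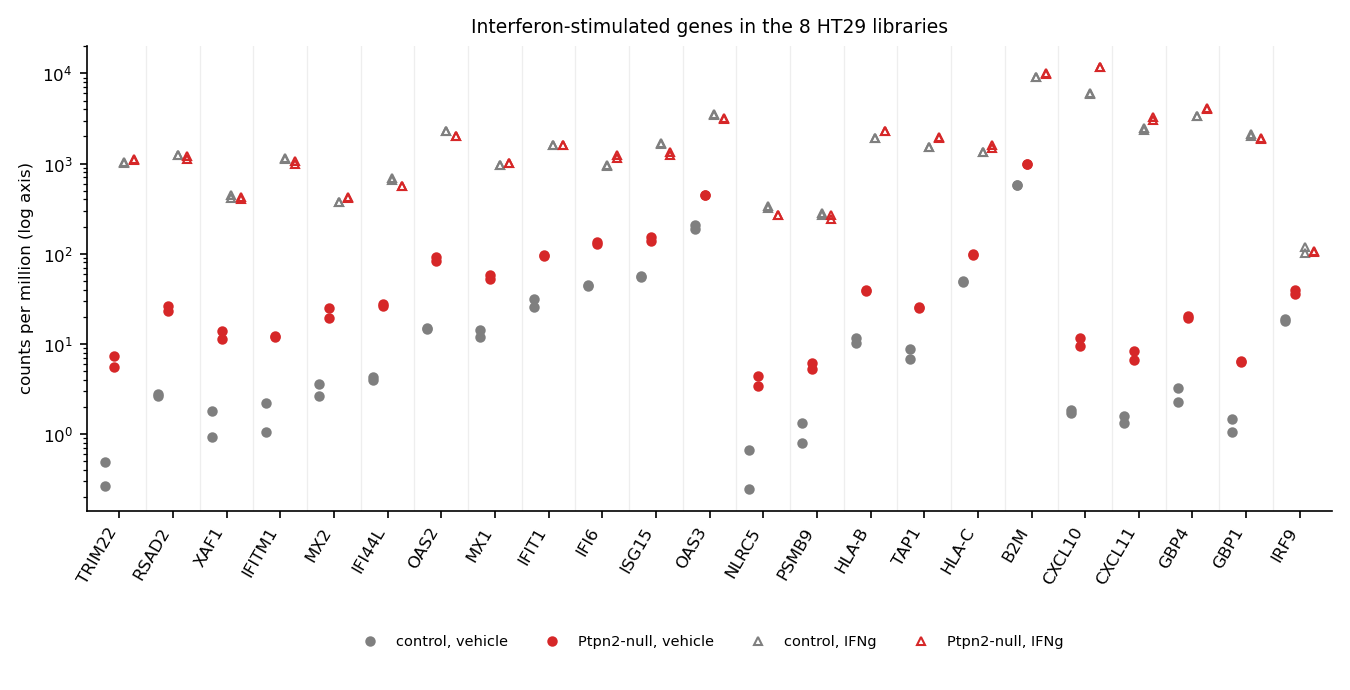
CPM (log axis) of 23 interferon-stimulated genes in each of the 8 HT29 libraries, 2 per group: grey for control, red for Ptpn2-null, filled circles for vehicle and open triangles for IFNg. In every gene shown, both Ptpn2-null vehicle libraries lie above both control vehicle libraries and below all 4 IFNg libraries. Some of these genes, such as TRIM22 and RSAD2, were named under a rule that required no overlap of the vehicle groups.

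Genes of MHC class I antigen presentation were also higher without added cytokine. Of the 20 listed, 17 were called higher and none lower, with a median log2 fold change of 0.63, and 17 of the 20 passed the filter in the control vehicle libraries alone. The heavy chain genes HLA-B and HLA-C present peptides to CD8 T cells, and HLA-E to NK cells. HLA-B stood at 11.6 and 10.3 CPM in control and 39.6 and 38.8 CPM in Ptpn2-null libraries (1.85 ± 0.10, adjusted p = 3.0e-22, edgeR), HLA-C at 49.5 and 49 against 99.6 and 97.9 CPM (1.0 ± 0.07) and HLA-E at 105 and 107 against 153 and 158 CPM (0.55 ± 0.05). The groups did not overlap in any of the 3, but these genes are close in sequence and the split of reads among them is uncertain.

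The other parts of the class I pathway moved with them. B2M, the light chain shared by all class I molecules, stood at 572 and 575 against 984 and 991 CPM (0.78 ± 0.03, adjusted p = 1.2e-26, edgeR). The peptide transporter genes TAP1 (6.77 and 8.73 against 24.8 and 25.6 CPM, 1.69 ± 0.13) and TAP2 (49.1 and 46.3 against 84.5 and 86.1 CPM, 0.84 ± 0.06) rose. So did the immunoproteasome genes PSMB8 (9.69 and 11.2 against 20 and 19.9 CPM, 0.93 ± 0.13) and PSMB9 (0.796 and 1.33 against 5.24 and 6.14 CPM, 2.38 ± 0.31). PSMB9 and TAP1 lie beside each other, and how the counting assigned reads of a shared region is not given in the sources used here. NLRC5, the transactivator of class I genes, had 7 counts in all in the control and 70 in the Ptpn2-null vehicle libraries (3.10 ± 0.41, adjusted p = 3.3e-08, edgeR). The 3 members not called were CALR (-0.03 ± 0.04) and PDIA3 (-0.07 ± 0.04), general chaperones of the endoplasmic reticulum, and the proteasome activator gene PSME2 (0.20 ± 0.14).

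MHC class II genes gave no such picture at this depth. Of 13 tested, CD74, the invariant chain, was called higher (9.96 and 9.09 against 17.6 and 16.9 CPM, 0.86 ± 0.14, adjusted p = 2.6e-06, edgeR), and 7 had 0 counts in all 4 vehicle libraries. CIITA, the class II transactivator, had 0 counts in the control and 5 in the Ptpn2-null vehicle libraries, or at least 1.47-fold higher when the control group is set at the floor of 3 counts, and was not called (adjusted p = 0.057, edgeR; 0.041 without Ptpn2-null vehicle replicate 2).

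Guanylate-binding proteins and other IFNg-inducible genes were higher in 28 of the 33 tested, with none lower, and their median log2 fold change was 1.01. The list has 37 members, and 25 passed the filter in the control vehicle libraries alone. GBP4 and GBP1 encode GTPases that attack the compartments of intracellular pathogens. GBP4 stood at 2.26 and 3.27 CPM in control and 19.5 and 20.2 CPM in Ptpn2-null libraries (2.82 ± 0.16, adjusted p = 2.9e-21, edgeR) and GBP1 at 1.06 and 1.46 against 6.39 and 6.26 CPM (2.31 ± 0.27), with GBP2 at 14.2 and 13.9 against 27.9 and 27.6 CPM (0.98 ± 0.11). The GBP genes are close paralogs, which leaves the split of reads among them uncertain. IFI16, a DNA sensor gene, stood at 0.531 and 0.606 against 7.23 and 5.66 CPM (3.47 ± 0.33), 9 against 116 counts in all. UBE2L6, a conjugating enzyme for ISG15, rose from 1.86 and 3.76 to 17.7 and 15.9 CPM (2.56 ± 0.19), and PARP14 from 181 and 195 to 405 and 386 CPM (1.07 ± 0.04).

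Surface ligands on this list also rose. CD274, which encodes PD-L1, stood at 3.58 and 5.09 against 7.65 and 8.91 CPM (0.91 ± 0.20, adjusted p = 4.1e-04, edgeR), and the adhesion molecule gene ICAM1 at 5.71 and 6.55 against 14.4 and 13.8 CPM (1.20 ± 0.15). WARS, a tRNA synthetase gene strongly induced by IFNg, differed little, 96.8 and 96.5 against 123 and 119 CPM (0.33 ± 0.05). IDO1, which breaks down tryptophan, had 0, 0, 0 and 1 counts in the 4 vehicle libraries and was not called. GBP5 had 0 counts in 3 of them and 4 in Ptpn2-null replicate 2, and was not called either.

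Chemokine genes were higher in 9 of the 15 tested, with none lower, and 7 of the 18 listed passed the filter in the control vehicle libraries alone. The T cell attractant CXCL10 stood at 1.86 and 1.7 CPM in control and 11.6 and 9.39 CPM in Ptpn2-null libraries (2.57 ± 0.21, adjusted p = 7.0e-15, edgeR), and CXCL11, which binds the same receptor, at 1.59 and 1.33 against 8.28 and 6.62 CPM (2.35 ± 0.26). CCL5 had 6 counts in all in control and 38 in Ptpn2-null libraries (2.44 ± 0.51). The neutrophil attractants differed less: CXCL1 stood at 9.96 and 8.61 against 17 and 18.9 CPM (0.95 ± 0.14) and IL8 (CXCL8) at 65.7 and 58.8 against 85 and 86.5 CPM (0.46 ± 0.07).

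**Figure D2:**
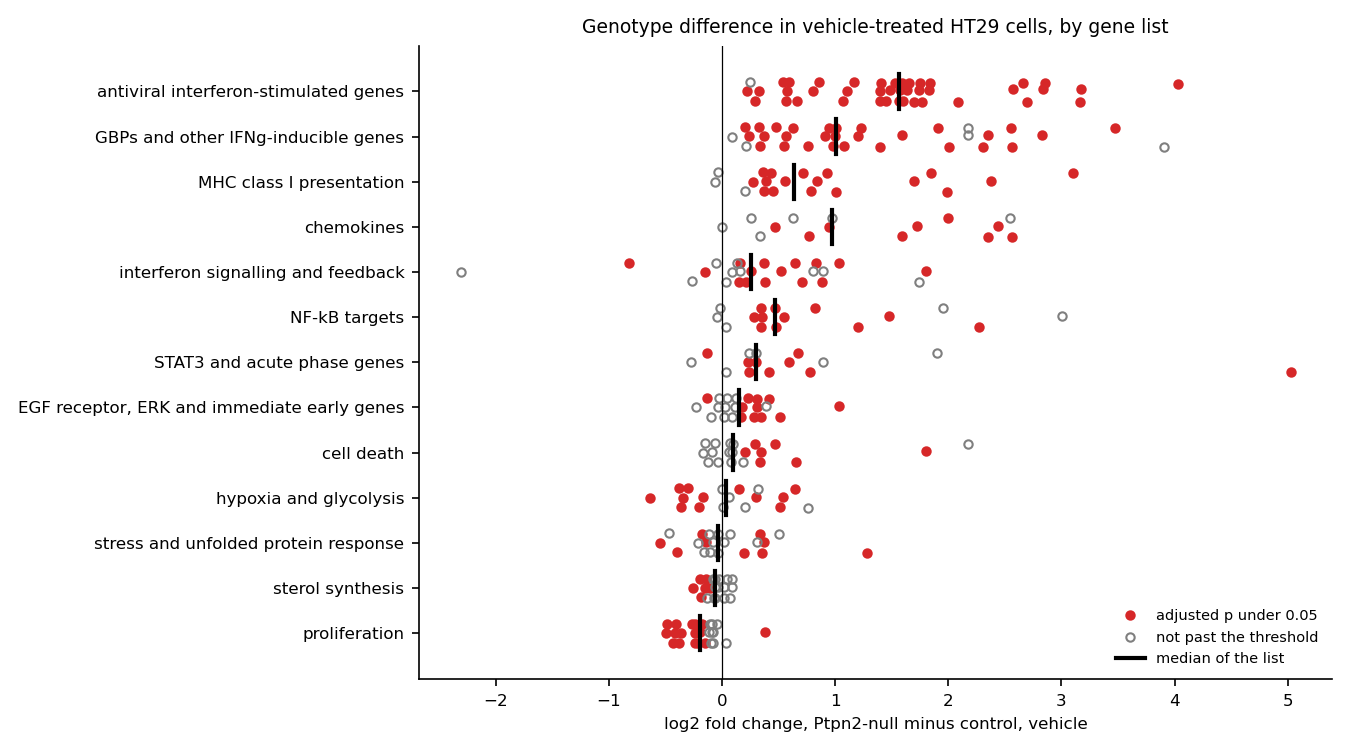
Log2 fold change (x axis) between Ptpn2-null and control HT29 cells under vehicle for each tested member of 13 gene lists (y axis). Filled red points had an adjusted p under 0.05, open grey points did not, and black bars mark each list's median, which runs from 1.57 for antiviral genes to -0.20 for proliferation genes.

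Within the signalling pathway itself, 13 of 25 genes were higher and 2 lower, and the folds were smaller than those of many target genes. The transcription factor genes STAT2 (28 and 25.3 against 50.9 and 47.3 CPM, 0.89 ± 0.08, adjusted p = 5.4e-13, edgeR) and IRF9 (17.8 and 18.9 against 36 and 39.4 CPM, 1.03 ± 0.11) rose, and both belong to the complex that type I interferon activates. IRF1, a main factor downstream of IFNg, stood at 23.2 and 26.3 against 41.1 and 36.1 CPM (0.64 ± 0.09), and IRF7, which amplifies type I interferon production, at 31.7 and 35 against 58.4 and 60.4 CPM (0.83 ± 0.08).

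Receptors and kinases differed by little. The kinase genes JAK1 (0.21 ± 0.06) and JAK2 (0.52 ± 0.16) and the receptor gene IFNGR1 (0.16 ± 0.06) were called, but each of the 3 calls was lost when control vehicle replicate 1 was left out (adjusted p = 0.096, 0.10 and 0.19, edgeR). The phosphatase gene PTPN11, the other member called lower beside PTPN2, differed by -0.15 ± 0.04, and PTPN1, the closest relative of PTPN2, by 0.04 ± 0.05 with no call.

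Feedback inhibitors were split. USP18, which removes ISG15 and blocks the type I receptor, was higher, with 6 and 8 counts in the control and 33 and 23 counts in the Ptpn2-null vehicle libraries (1.80 ± 0.38, adjusted p = 2.8e-04, edgeR). The SOCS-family genes were near the limit of detection. SOCS1 had 3 counts in all in the control and 12 in the Ptpn2-null libraries, a ratio of 3.53 with a 95% exact binomial interval of 0.953 to 19.5 that covers counting error only. SOCS3 (0.89 ± 0.59, adjusted p = 0.3) and CISH (-0.26 ± 0.60, adjusted p = 0.81) were not called either, although SOCS1 was without control vehicle replicate 1 (adjusted p = 0.048).

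Genes for the interferons themselves gave few counts. IFNB1, which encodes interferon-beta, had 0 and 0 counts in the control libraries and 5 and 1 counts in the Ptpn2-null libraries, or at least 1.77-fold higher against the same floor. Its call (adjusted p = 0.049, edgeR) rests on these 6 counts and was lost under DESeq2 (0.089) and without control vehicle replicate 1 (0.18), control vehicle replicate 2 (0.19) or Ptpn2-null vehicle replicate 1 (0.38). IFNE had 35 and 42 against 62 and 64 counts and was not called (0.53 ± 0.23), and the interferon-lambda gene IL29 had 2 and 2 against 3 and 2. Secreted interferon was not measured in these files.

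A list of IFNg-induced genes drawn from other cells described the same libraries. It held the 91 genes called at least 2-fold higher with IFNg in control cells of both A549, a lung cancer line, and MelJuSo, a melanoma line, whose libraries play no part in the HT29 contrast. In HT29, 90 of these were tested and 66 were called higher under vehicle, none lower, with a median log2 fold change of 0.99, and 59 of the 91 passed the filter in the control vehicle libraries alone. With a threshold of 2 in place of 1 on the log2 scale, 37 of 48 were called higher (median 1.42). Of the 218 genes at least 2-fold higher in Ptpn2-null HT29 cells, 37 were on the list of 91 (17.0% of the 218 and 41.1% of the 90).

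Genes on lists of other signalling targets rose too, mostly by less. In control HT29 cells IFNg raised 30.8% of all tested genes and lowered 28.7%. Beside these shares, IFNg raised 13 of the 16 tested NF-kB targets and lowered none. It raised 10 of the 15 tested STAT3 and acute phase genes and lowered 2. The lists thus do not tell these pathways apart from the interferon response. In the control vehicle libraries alone, 12 of 19 listed NF-kB targets and 11 of 26 listed STAT3 and acute phase genes passed the filter. Of NF-kB targets, 11 of 16 were higher and none lower (median 0.47), including the ubiquitin ligase gene BIRC3 (17.3 and 14.8 against 28.7 and 27.7 CPM, 0.82 ± 0.11) and TNFAIP3, the feedback inhibitor A20 (2.12 and 1.7 against 4.3 and 6.5 CPM, 1.48 ± 0.29). RELA, a subunit of NF-kB, did not pass the test (0.03 ± 0.06). Of STAT3 and acute phase genes, 8 of 15 were higher and 1 lower, among them LCN2, an iron-scavenging antibacterial protein (95 and 95.3 against 156 and 146 CPM, 0.67 ± 0.06), JUNB (134 and 131 against 202 and 198 CPM, 0.59 ± 0.05) and the kinase gene PIM1 (18.3 and 17 against 31.5 and 28.6 CPM, 0.78 ± 0.11).

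Genes downstream of the EGF receptor and ERK were higher in 10 of 22 and lower in 1 (median 0.14). In control HT29 cells IFNg raised 8 of the 22 and lowered 6, near the 30.8% and 28.7% of all tested genes. The ERK phosphatase genes DUSP6 (114 and 104 against 155 and 157 CPM, 0.52 ± 0.06) and DUSP5 (11 and 9.94 against 20 and 22.9 CPM, 1.03 ± 0.13) rose, as did the receptor gene ERBB3 (0.31 ± 0.05) and the immediate early gene FOS (148 and 138 against 188 and 193 CPM, 0.41 ± 0.05). SPRY2 and SPRED1, inhibitors of the same pathway, did not pass the test (-0.03 ± 0.10 and -0.03 ± 0.04).

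Of cell death genes, 7 of 20 were higher and none lower, against 12.5% and 8.66% of all tested genes. TNFSF10, which encodes the death ligand TRAIL and is itself an interferon-stimulated gene, stood at 11.7 and 11.9 CPM in control and 43.1 and 39 CPM in Ptpn2-null libraries (1.80 ± 0.10, adjusted p = 6.0e-22, edgeR). The pore-forming pyroptosis gene GSDMD differed by 0.34 ± 0.08, while the caspase gene CASP8 (0.06 ± 0.08) was not called.

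Genes of cell division were lower in Ptpn2-null cells by small amounts. Of the 25 listed, 15 were called lower and 1 higher, with a median of -0.20, against 8.66% of all tested genes called lower. The mitotic genes AURKA (162 and 162 against 119 and 113 CPM, -0.49 ± 0.06, adjusted p = 3.6e-10, edgeR), PLK1 (173 and 172 against 131 and 125 CPM, -0.43 ± 0.05), CDC20 (116 and 120.5 against 84.7 and 83.2 CPM, -0.50 ± 0.06) and CCNB1 (293 and 305 against 235 and 225 CPM, -0.38 ± 0.04) fell, and the groups did not overlap in any of them. The proliferation marker MKI67 stood at 1178 and 1143 against 1013 and 983 CPM (-0.22 ± 0.03). The cyclin gene CCNE2 was the member called higher (0.38 ± 0.10). CDKN1A, the cell cycle inhibitor p21, kept on the stress list, stood at 12.1 and 13.6 against 32.4 and 30 CPM (1.28 ± 0.11, adjusted p = 1.0e-13, edgeR). Between 10 genes (DESeq2) and 20 genes (only the 4 vehicle libraries in the fit) of the list were called lower under other settings.

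Metabolic and stress genes changed in both directions, beside 12.5% of all tested genes called higher and 8.66% called lower. Of 18 hypoxia and glycolysis genes, 7 were lower and 5 higher. The glycolytic enzyme genes ENO1 (1129 and 1084 against 867 and 852 CPM, -0.36 ± 0.04) and LDHA (624 and 601 against 478 and 462 CPM, -0.38 ± 0.04) fell. Of 20 sterol synthesis genes, 6 were lower and none higher. Of 21 stress and unfolded protein response genes, 5 were higher and 4 lower. The serine synthesis gene PSAT1 fell (92.1 and 87.5 against 60.6 and 62 CPM, -0.55 ± 0.07).

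Of the 10 genes called at least 2-fold lower, 6 had a mean log2 CPM of 1 or more, and these were outside the interferon lists. TNC, which encodes the matrix protein tenascin-C, stood at 13.3 and 12.1 CPM in control and 3.56 and 3.85 CPM in Ptpn2-null libraries (-1.77 ± 0.19, adjusted p = 7.1e-11, edgeR). SMPD3, a neutral sphingomyelinase gene, stood at 19.5 and 16.9 against 6.08 and 9.75 CPM (-1.22 ± 0.16), and ANXA13, an intestinal annexin gene, at 12.6 and 13.1 against 5.03 and 6.98 CPM (-1.11 ± 0.19). TNC showed the widest separation of the 3, as the Ptpn2-null libraries of SMPD3 and ANXA13 were themselves further apart. SLC4A4 (-1.17 ± 0.39, 50 against 25 counts in all) and KCNJ3 (-1.17 ± 0.38, 52 against 26 counts) also fell, on fewer counts. Smaller falls were measured for the kinase gene PKDCC (-1.01 ± 0.17), the aldo-keto reductase gene AKR1B10 (26.9 and 26.7 against 12.8 and 14.2 CPM, -0.99 ± 0.13), the sulfate donor enzyme PAPSS2 (39.6 and 36.4 against 19.7 and 19.5 CPM, -0.95 ± 0.11) and the adhesion protein gene CEACAM6 (16.2 and 13 against 8.59 and 6.26 CPM, -0.95 ± 0.16). More abundant genes fell by less: ALDH1A1, a retinoic acid synthesis enzyme, from 612 and 629.9 to 394 and 422 CPM (-0.61 ± 0.04), ODC1, the first enzyme of polyamine synthesis, from 469 and 422 to 305 and 288 CPM (-0.59 ± 0.04), and the surface glycoprotein gene CD24 from 445 and 445 to 304 and 317 CPM (-0.52 ± 0.04).

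**Figure D3:**
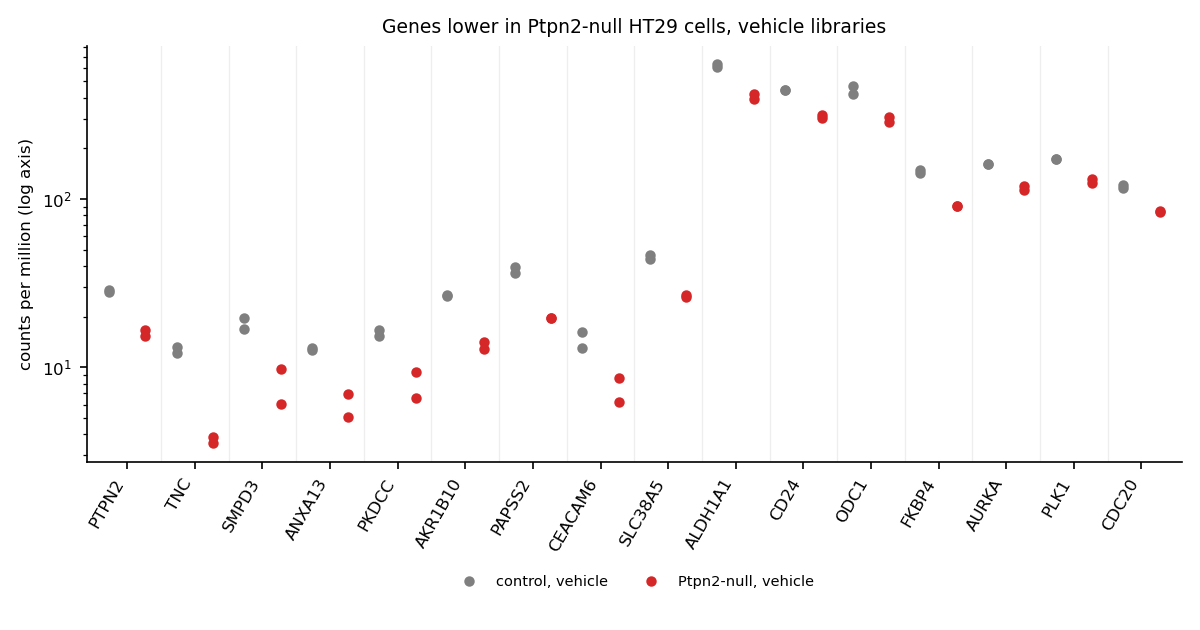
CPM (log axis) of PTPN2 and 15 genes that were lower in Ptpn2-null HT29 cells, in the 2 control (grey) and 2 Ptpn2-null (red) vehicle libraries. In each gene both red points lie below both grey points, which held for 3386 of all 12555 tested genes. The rule that named the genes of largest fall required this separation.

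Colon and stem cell markers showed no shared direction, beside 12.5% of all tested genes called higher and 8.66% called lower. Of 20 tested colon epithelium markers, 4 were lower and 2 higher: AGR2, a mucin-folding protein (-0.41 ± 0.08), fell and KRT20, a keratin of differentiated colon cells, rose (0.21 ± 0.04). Of 15 WNT and stem-like genes, 3 were higher and 3 lower. Among markers of other cell types, LYZ, which carried most of the leukocyte list's level, stood at 2472 and 2569 against 2793 and 2980.0 CPM (0.20 ± 0.03), and CD14 at 17.3 and 15.2 against 26.7 and 28.3 CPM (0.76 ± 0.12). Summed levels of lists were scaled by total counts without the TMM factors, so they are not on the scale of the gene values above. On that scale the leukocyte list stood at 2745 to 2849 CPM in the control and 3106 to 3316 CPM in the Ptpn2-null vehicle libraries. The fibroblast list stood at 4.0 to 4.23 and 4.14 to 7.80 CPM, and the melanocyte list at 4.8 to 5.11 and 8.85 to 9.39 CPM. The lung list stood at 4.40 to 4.96 and 4.25 to 5.55 CPM. The pan-leukocyte gene PTPRC had 0 counts in all 4 libraries, and the part of the other markers in the interferon-stimulated differences was not tested.

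Levels in vehicle-treated Ptpn2-null cells were then set beside those of IFNg-treated cells. The response of control cells to IFNg shares its control vehicle libraries with the comparison above, so the values are given side by side only. In control HT29 cells IFNg raised 3865 genes (30.8%) and lowered 3598 (28.7%), including all 41 antiviral, all 20 MHC class I and 33 of 33 tested IFNg-inducible genes. The level in Ptpn2-null vehicle cells was a small share of that in Ptpn2-null cells given IFNg, and the share varied widely between genes. It was 35.8% for IRF9, 24.6% for IFI27, 14.2% for OAS3, 11.3% for ISG15 and 9.95% for B2M. It was 5.42% for MX1, 1.72% for HLA-B, 0.582% for TRIM22, 0.488% for GBP4, 0.334% for GBP1 and 0.0886% for CXCL10.

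The genotype difference was not the same with and without IFNg. Under IFNg, 2679 genes were higher in Ptpn2-null cells (21.3%) and 2579 lower (20.5%). The interaction, which tests the difference under IFNg minus that under vehicle, called 925 genes higher (7.37%) and 1478 lower (11.8%). Control IFNg replicate 1 is labelled as lung cancer cells although its cell line entry and title say HT29. Its log2 CPM correlated with those of its partner across genes at a Pearson r of 0.993, a description over genes, and without it 836 genes were called higher and 995 lower by the interaction. With the test of DESeq2 the interaction called 554 higher and 695 lower, and 1554 genes were lower in Ptpn2-null cells under IFNg.

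For most antiviral genes the genotype difference under IFNg was below that under vehicle: the interaction was negative for 36 of the 41 and positive for none, with 5 not called. Under IFNg 17 of the 41 were higher in Ptpn2-null cells and 12 lower, with a median of 0.07 in place of 1.57. OAS2 had 2292 and 2279 CPM in control and 2041 and 2029 CPM in Ptpn2-null IFNg libraries (-0.17 ± 0.03), and its interaction was -2.74 ± 0.09 (adjusted p = 1.6e-32, edgeR). ISG15 had 1644 and 1669 against 1335 and 1242 CPM (-0.36 ± 0.04, interaction -1.76 ± 0.07), so its genotype difference had the opposite sign under IFNg. The same reversal was measured for DDX60 (-0.51 ± 0.04, interaction -2.28 ± 0.09).

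Under IFNg, 12 of the 20 MHC class I genes were higher in Ptpn2-null cells and 4 lower, with a median of 0.19. The interaction was negative for 15 of the 20 and positive for 2. B2M differed by 0.11 ± 0.03 under IFNg (interaction -0.67 ± 0.05, adjusted p = 7.6e-18, edgeR), HLA-B by 0.24 ± 0.03 (interaction -1.60 ± 0.11) and TAP1 by 0.35 ± 0.03 (interaction -1.34 ± 0.13), all smaller than under vehicle and of the same sign. PSMB8 differed by -0.40 ± 0.05 (adjusted p = 3.8e-09; interaction -1.33 ± 0.14) and NLRC5 by -0.29 ± 0.05 (adjusted p = 7.3e-07; interaction -3.39 ± 0.41), with the sign opposite to that under vehicle. ERAP2, a peptide-trimming enzyme gene, was the other member higher under vehicle (0.45 ± 0.06) and lower under IFNg (-0.15 ± 0.04), and PSME2, not called under vehicle, was also lower (-0.23 ± 0.07).

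Other genes had a positive interaction. CXCL1 differed by 0.95 ± 0.14 under vehicle and 2.04 ± 0.08 under IFNg (interaction 1.09 ± 0.17, adjusted p = 1.4e-06, edgeR), and the TNF-inducible gene TNFAIP2 by 0.28 ± 0.05 and 1.22 ± 0.04 (interaction 0.94 ± 0.06). RARRES1, a retinoid-responsive gene, showed no call under vehicle, where it stood at 49.8 and 55.4 against 47.8 and 56.1 CPM, and 20.6 and 24.8 against 253 and 237 CPM under IFNg (interaction 3.46 ± 0.12, adjusted p = 2.9e-31). TNC, lowest under vehicle, was higher in Ptpn2-null cells under IFNg, at 40.8 and 37.6 against 64.1 and 59.4 CPM (0.66 ± 0.09, interaction 2.43 ± 0.21). The interaction of the adhesion gene ICAM1 was not called (1.20 ± 0.15 under vehicle, 1.40 ± 0.04 under IFNg, interaction 0.20 ± 0.17, adjusted p = 0.49). Proliferation genes were lower in all 25 under IFNg, and the interaction was negative for 23. MKI67 fell from 886 and 916 to 552 and 555 CPM there (interaction -0.49 ± 0.05).

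**Figure D4:**
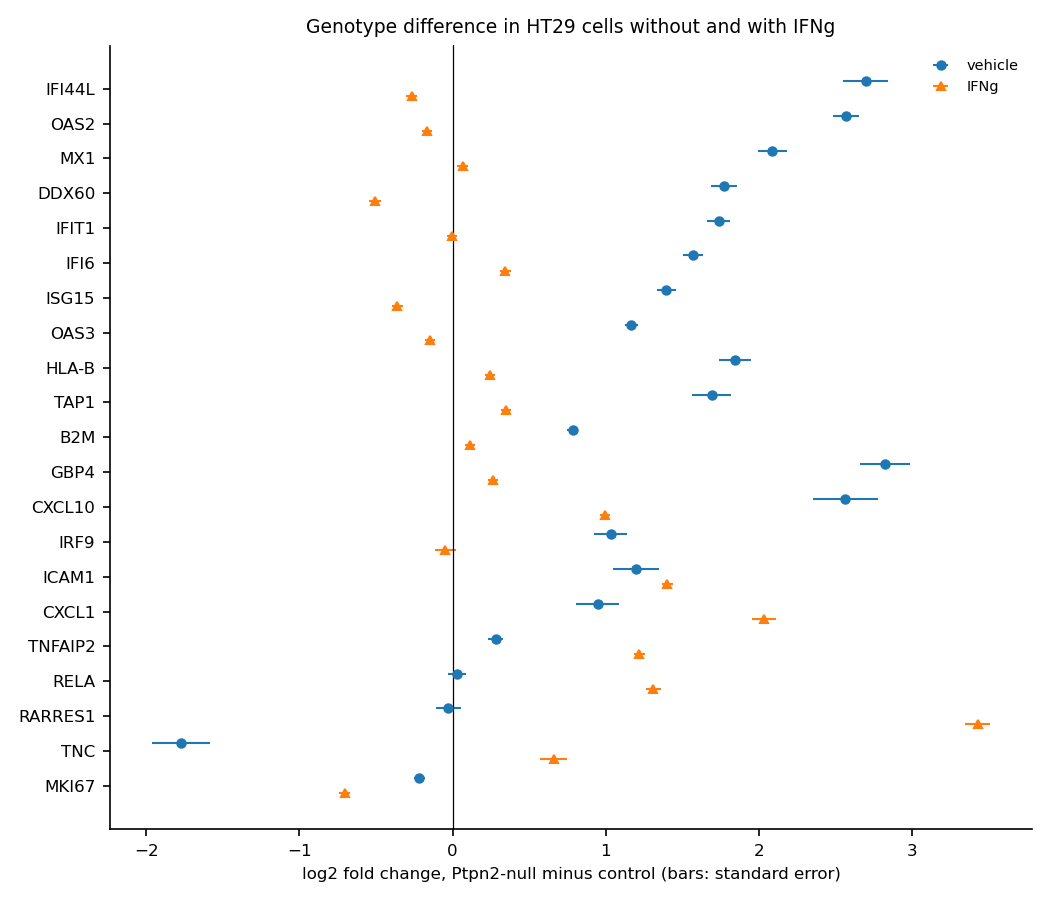
Log2 fold change between Ptpn2-null and control HT29 cells (x axis, bars are SE) for 21 genes (y axis) under vehicle (blue circles) and under IFNg (orange triangles). Antiviral genes such as OAS2 lie at 2.57 under vehicle and -0.17 under IFNg, while RARRES1 lies at -0.03 and 3.43.

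The vehicle libraries of A549 and MelJuSo allowed the same genotype comparison in other human lines. A549 had 2 libraries per genotype and MelJuSo 3, with the same guide names. All 14 vehicle libraries of the 3 lines were fitted together over 14273 genes. The genotype effect in HT29 was called higher for 1766 genes (12.4%) and lower for 1228 (8.6%), in A549 for 196 (1.37%) and 144 (1.01%), and in MelJuSo for 193 (1.35%) and 159 (1.11%). PTPN2 itself differed by -0.99 ± 0.13 in A549 and -1.18 ± 0.15 in MelJuSo, against -0.82 ± 0.12 in HT29, and neither difference between lines was called (adjusted p = 0.69 and 0.28, edgeR).

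The antiviral difference of HT29 was not measured at that size in the other lines. Of the 41 antiviral genes, 40 were called higher in HT29, 1 in A549 and none in MelJuSo (edgeR), with medians of 1.57, 0.04 and 0.02. The direct test of the lines called the HT29 effect larger than that of A549 for 23 of the 41 (5.56% of all genes) and larger than that of MelJuSo for 28 (5.7%), and smaller for none (4.07% and 3.94% of all genes). OAS3 differed by 1.17 ± 0.04 in HT29, -0.12 ± 0.06 in A549 and -0.14 ± 0.05 in MelJuSo, and HT29 exceeded A549 by 1.29 ± 0.07 (adjusted p = 2.3e-74, edgeR) and MelJuSo by 1.31 ± 0.06 (adjusted p = 3.3e-87). PARP14 differed by -0.01 ± 0.07 in A549 and -0.06 ± 0.06 in MelJuSo, and ISG15 by -0.02 ± 0.33 and 0.29 ± 0.18. Several antiviral genes had too few counts in A549 or MelJuSo for a precise effect there, such as OAS2 in A549 (-0.55 ± 1.21). They are kept in the counts and medians above, where IFI44L and IFITM1 enter for MelJuSo at 0 with no SE. A member not called in these lines can thus be one that was not measurable there.

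MHC class I genes were called higher in 16 of 20 in HT29, 2 in A549 and 3 in MelJuSo, against 12.4%, 1.37% and 1.35% of all genes. The HT29 effect was larger than that of A549 for 11 (5.56% of all genes) and than that of MelJuSo for 15 (5.7%). B2M differed by 0.79 ± 0.03 in HT29, 0.15 ± 0.04 in A549 and 0.07 ± 0.03 in MelJuSo. HLA-B differed by 0.0 ± 0.15 in A549 and 0.14 ± 0.04 in MelJuSo, and HT29 exceeded them by 1.85 ± 0.19 and 1.71 ± 0.12. Of these effects in the other lines, that of B2M in A549 (adjusted p = 0.03, edgeR) and that of HLA-B in MelJuSo (adjusted p = 0.019) were called higher.

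Some differences were shared and some had the opposite sign. CDKN1A was called higher in all 3 lines, by 1.28 ± 0.11 in HT29, 0.58 ± 0.06 in A549 and 0.24 ± 0.04 in MelJuSo, and by more in HT29 than in A549 (adjusted p = 5.1e-06, edgeR) or MelJuSo (adjusted p = 2.1e-15). NFAT5, a factor that responds to osmotic stress, was higher in HT29 (0.42 ± 0.04) and lower in A549 (-0.34 ± 0.04). The amino acid transporter gene SLC7A5 was lower in HT29 (-0.26 ± 0.04) and higher in A549 (0.22 ± 0.03). FKBP4, a co-chaperone of steroid receptors, was lower in HT29 (-0.68 ± 0.05) and not called in A549 (0.13 ± 0.05) or MelJuSo (0.05 ± 0.04). TNC was lower in HT29 (-1.77 ± 0.17) and in A549 (-5.31 ± 1.36, adjusted p = 0.024, edgeR), and higher in MelJuSo (0.11 ± 0.02). The TNC effects of HT29 and A549 were not called different (adjusted p = 0.18, edgeR). Proliferation genes were lower in 17 of 25 in HT29 in this fit, in 3 in A549 and in 11 in MelJuSo, against 8.6%, 1.01% and 1.11% of all genes. The HT29 effect was more negative than that of A549 for 6 (4.07% of all genes) and than that of MelJuSo for 5 (3.94%). Leaving out Ptpn2-null vehicle replicate 2 moved the genes with a lower effect in HT29 than in A549 from 581 to 366 and than in MelJuSo from 562 to 345, and leaving out control vehicle replicate 1 moved the comparison with MelJuSo from 813 to 540 higher and from 562 to 310 lower.

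**Figure D5:**
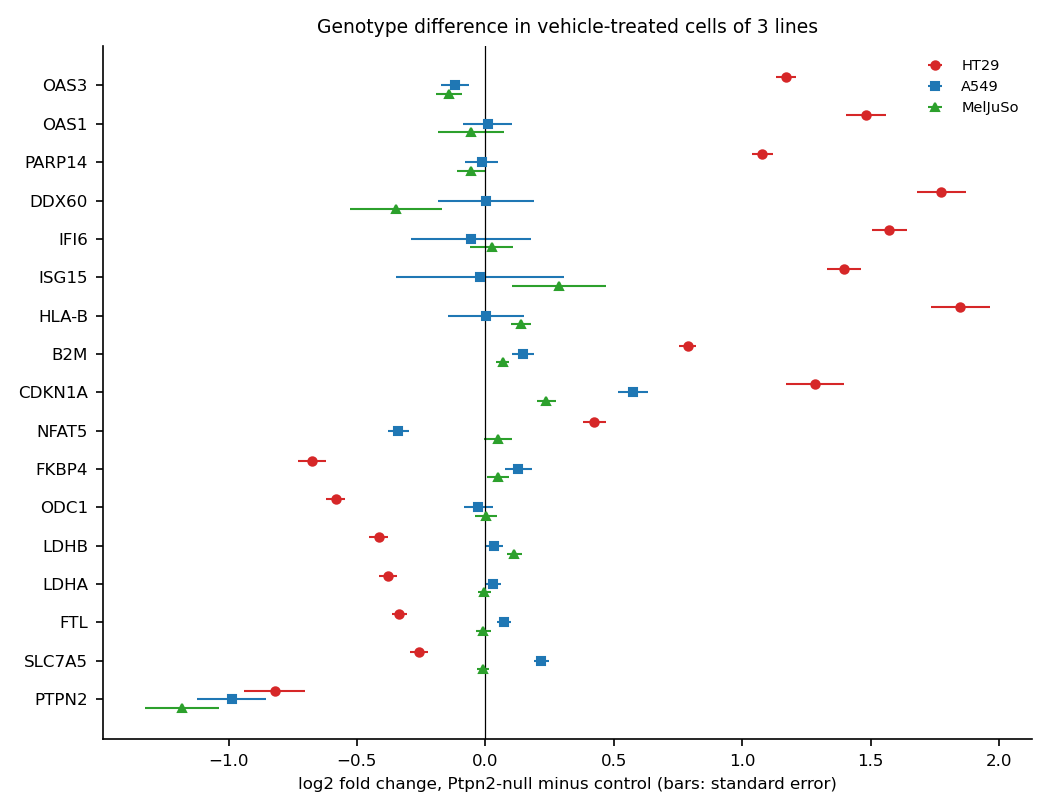
Log2 fold change between Ptpn2-null and control cells under vehicle (x axis, bars are SE) for 17 genes (y axis) in HT29 (red circles), A549 (blue squares) and MelJuSo (green triangles). For OAS3, the HT29 value is 1.17, and those of A549 and MelJuSo are -0.12 and -0.14, while PTPN2 is lower in all 3 lines.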

How the data were processed

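Deposited were raw read counts per gene, made by the authors on hg19 with Bowtie2 2.2.4, HTSeq 0.6.1p1, Trimmomatic 0.33 and bcl2fastq 2.17.1.14, per the submitters' processing notes. Libraries were poly(A)-selected, directional and paired-end, per the labels' protocols. Gene annotation and strand setting: not given in the sources used here. Samples were grouped by title, cell line and guide label.

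The 8 HT29 libraries (6848609 to 9605776 counts) were fitted in R 4.3.3 with edgeR 4.0.16, after filterByExpr and TMM, using robust dispersions (common biological coefficient of variation 0.0266), 1 mean per group and quasi-likelihood F tests, adjusted by Benjamini-Hochberg across 12555 genes. Contrasts were the genotype under vehicle, under IFNg, their difference, and IFNg in control cells. The 14 vehicle libraries of HT29, A549 and MelJuSo were fitted likewise to test differences between lines. The 2 libraries of a group differed by more than counting noise (chi-square per degree of freedom 1.31 to 2.04). The scripts were tested on simulated data. No human genome or sequence was used here.

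The comparison, the 21 gene lists and the tests were chosen with earlier results of these data known. Named were PTPN2, a fixed set of interferon-related genes, the called genes of largest change without overlap between groups (mean log2 CPM 1 or more, 15 per direction at most), up to 5 called members of each list by adjusted p, and up to 5 genes per direction of each difference test. Other members of the lists named in the text, such as those not called, were chosen after their values were seen. Some genes that the rule names are not reported here. Alternatives were DESeq2 1.42.0 and its size factors (RLE), no filter, only the 4 vehicle libraries in the fit, a replicate block, a stricter list threshold, and leaving out each library.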

Additional observations from a re-analysis of the deposited data

Results flagged for a closer look

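The genotype difference in HT29 cells under IFNg minus that under vehicle was called higher for 925 genes and lower for 1478 by the interaction test of edgeR. The 5 genes with the smallest adjusted p in the higher direction were RARRES1 (3.46), ATF5 (1.77), NOTCH2 (1.46), RELA (1.28) and TNFAIP2 (0.939 on the log2 scale). NOTCH2, a receptor of cell-to-cell signalling, stood at 149 and 151 against 150.2 and 151 CPM under vehicle and at 109 and 119.5 against 318 and 311 CPM under IFNg. ATF5, a stress-responsive transcription factor gene, stood at 73.9 and 74 against 60.3 and 65.4 CPM and at 122 and 124 against 342 and 373 CPM. Those in the lower direction were OAS2 (-2.74), ISG15 (-1.76), OAS3 (-1.32), DDX60 (-2.28) and PARP14 (-1.21). No cause of these differences was tested.

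The vehicle genotype effect was larger in HT29 than in A549 for 793 genes and smaller for 581. The genes with the smallest adjusted p were OAS3 (1.29), PARP14 (1.09), NFAT5 (0.763), B2M (0.642) and OAS1 (1.47) in the higher direction and ALDH1A1 (-0.653), CD24 (-0.647), FKBP4 (-0.804), SLC7A5 (-0.477) and the ferritin gene FTL (-0.406) in the lower direction.

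Against MelJuSo, the HT29 effect was larger for 813 genes and smaller for 562. The genes with the smallest adjusted p were OAS3 (1.31), B2M (0.72), PARP14 (1.13), IFI6 (1.55) and HLA-B (1.71) in the higher direction and LDHB (-0.529), FKBP4 (-0.724), ODC1 (-0.584), TNC (-1.88) and LDHA (-0.374) in the lower direction. The effects of FKBP4, LDHA, LDHB, ODC1, SLC7A5 and FTL were called lower in HT29 against both lines. Those of ALDH1A1 and CD24 were not called lower against MelJuSo, and that of TNC was not called lower against A549. All these differences were tested directly, over 14273 genes.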

How the results depend on the processing

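Antiviral genes were called higher in 40 of 41 under every setting that was run. MHC class I genes were called higher in 14 to 17, IFNg-inducible genes in 23 to 28 and the genes induced by IFNg in A549 and MelJuSo in 60 to 67. The last count was 37 (of 48) with the list threshold of 2, by construction of a shorter list. Of the 134 named genes called, 108 kept their direction and their call in every setting that gave them a value, and no result reversed. With DESeq2's test, fewer genes were called under vehicle (803 higher, 536 lower), under IFNg (1554 lower) and for the interaction (554 higher, 695 lower), and the cause was not tested. Leaving out 1 library gave 1001 to 1165 higher and 625 to 776 lower genes under vehicle, against 1566 and 1087, lowest without control vehicle replicate 1. Without Ptpn2-null vehicle replicate 2, 679 were lower. For the HT29 effect minus that of A549 the range was 535 to 615 higher and 366 to 524 lower, and for that minus MelJuSo 540 to 618 and 310 to 454. Fits with a library left out assume that the lone sample of its group varies like the others. The labels do not say what a replicate number marks, so the numbers were not taken to pair the samples. Deviations of libraries with the same number correlated weakly, and positively in every pair of groups (r of 0.013 to 0.045). With a replicate block 1677 genes were called higher and 1193 lower under vehicle, and no named gene's call changed. With only the 4 vehicle libraries in the fit the counts were 1578 and 1517. At this depth genes such as SOCS1, CIITA, IFNB1 and IDO1 had too few counts under vehicle for a difference to be measured.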

Other observations

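Genes outside the lists were also at least 2-fold higher in vehicle-treated Ptpn2-null HT29 cells. Of the 11483 tested genes whose mean log2 CPM was 1 or more, 145 were called at least 2-fold higher. None of the 145 overlapped between the genotypes, and 32.9% of all tested genes were higher without overlap. A call at that fold makes such separation likely, so it is no separate support. Of the 145, 52 were on the 5 interferon and presentation lists or among the genes that IFNg induced in A549 and MelJuSo. The genes named in the following were chosen after their values were seen. Several are known from interferon responses: EPSTI1 stood at 1.46 and 1.94 CPM in control and 7.13 and 7.46 CPM in Ptpn2-null libraries (2.08 ± 0.25, adjusted p = 2.5e-09, edgeR), the nuclear body gene SP110 at 9.56 and 12.1 against 25.4 and 20.9 CPM (1.09 ± 0.13), SLFN5 at 26.8 and 31 against 72.6 and 66.9 CPM (1.27 ± 0.08) and PARP10 at 18.2 and 19.8 against 38.9 and 40.9 CPM (1.07 ± 0.10). CFB, a complement factor gene, stood at 3.32 and 2.06 against 7.13 and 7.82 CPM (1.48 ± 0.22), and CSF1, the growth factor of macrophages, at 0.664 and 1.21 against 3.25 and 3.13 CPM (1.73 ± 0.37).

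The plasminogen activator genes PLAU and PLAT stood at 1.46 and 1.94 against 3.98 and 4.09 CPM (1.23 ± 0.30, adjusted p = 0.0015, edgeR) and at 10.5 and 13.5 against 25.8 and 22.5 CPM (1.01 ± 0.14). The keratin gene KRT17 (0.929 and 0.97 against 3.35 and 3.73 CPM, 1.88 ± 0.37) and KLF4, a factor of epithelial differentiation (5.18 and 6.55 against 13.2 and 11.6 CPM, 1.08 ± 0.17), were higher. Among genes that fell were the transcription factor genes HNF4G (51.8 and 62.9 against 35.7 and 44.2 CPM, -0.53 ± 0.09) and MYB (37 and 38.6 against 24.8 and 27.2 CPM, -0.54 ± 0.10), and the receptor gene FGFR4 (53.4 and 53.1 against 32.3 and 32 CPM, -0.73 ± 0.09).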
